A study of Homo sapiens with 12 samples.

Results

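The interferon effectors followed were 10 of the 60675 Ensembl gene identifiers counted, IFITM1, IFITM2, IFITM3, BST2, TRIM14, DTX3L, PARP9, PARP14, MOV10 and WARS1. They were found by matching the identifiers to GENCODE release 44 symbols, and each symbol had 1 identifier. The genes were listed with the differences between resistant and parental cells of these libraries already known, so the differences within each line are given as a description, with a standard error (SE) and with no p-value.

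RNA was sequenced from SUDHL6 and SUDHL16, cell lines of human diffuse large B-cell lymphoma (DLBCL), and from a derivative of each that had been exposed to rising concentrations of venetoclax (ABT-199, an inhibitor of the anti-apoptotic protein BCL2) until it grew at 10 times the IC50 of its parent. There were 4 groups of 3 libraries, namely SUDHL6 parental, SUDHL6 resistant, SUDHL16 parental and SUDHL16 resistant. The labels name the groups of a line only as parental or resistant, and each line is represented by 1 derivative. By the methods of the study, resistance was selected over months and the resistant cells were kept in venetoclax. Time in culture and selection of cells therefore cannot be told apart from exposure to the drug. For experiments, parental and resistant cells were moved to fresh media, and whether venetoclax was present at harvest is not stated. SUDHL6 RNA was prepared with NEBNext Ultra II, that of SUDHL16 with an Illumina stranded total RNA kit that removes ribosomal RNA (RiboZero Plus), and the sequencers differed too, so a difference between the lines cannot be told apart from one of kit or instrument. Nothing states that the 3 libraries of a group came from separate cultures, and the errors may then be technical.

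The total count was 33992784 to 40885665 per SUDHL6 library and 4131927 to 22068221 per SUDHL16 library. SUDHL16 parental replicate 2 stood apart, with the lowest total, 31.9% of its counts on identifiers outside GENCODE 44 (1.61% to 5.06% in the other SUDHL16 libraries) and 55.4% on protein-coding genes. The difference of each member between resistant and parental SUDHL16 cells is therefore given with and without it. Other SUDHL16 results are given without it only in part. edgeR estimated a coefficient of biological variation of 0.0516 for SUDHL6 and of 0.468 for SUDHL16, or 0.339 when that library was left out. All 6 B cell markers and all 4 germinal centre markers examined had a mean of at least 1 CPM (read counts scaled to a common library size) in every group. The germinal centre marker CD38 was near that limit in SUDHL16 resistant cells, at 0.941 to 1.32 CPM beside 11.5 to 29.3 CPM in their parent. The lowest value of the other germinal centre markers in those resistant cells was 67.9 CPM (MYBL1). Of the 4 T cell markers only CD3E had a group mean above 1 CPM, in SUDHL16, at 10.8 to 13.4 CPM in SUDHL16 resistant cells and 1.16 to 4.48 CPM in their parent, while CD3D, CD2 and CD5 had 0 counts in the SUDHL16 resistant libraries. The summed NK, myeloid and stromal markers were highest in SUDHL16 parental replicate 2, at 22, 7.58 and 13.8 CPM, and their part in the results was not tested.

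Interferons bind receptors that activate JAK kinases and STAT transcription factors. The complex ISGF3 then binds interferon-stimulated response elements (ISRE) in promoters, whereas STAT dimers bind GAS elements. The genes induced this way block viruses at several steps. IFITM1, IFITM2 and IFITM3 are membrane proteins that hinder fusion of viral and cellular membranes, and BST2 (tetherin) holds budding virions at the cell surface. TRIM14 is an adaptor of the mitochondrial antiviral protein MAVS. PARP9 and DTX3L form a complex of an ADP-ribosyltransferase family protein and an E3 ubiquitin ligase, and PARP14 is a mono-ADP-ribosyltransferase encoded beside them. MOV10 is an RNA helicase that restricts retroelements, and WARS1 is the cytosolic tryptophanyl-tRNA synthetase, a tRNA synthetase that interferon gamma induces.

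The start-site sequences of the members are shown because the genes are grouped by a shared response to interferon, and because DTX3L and PARP9 start from the same stretch of DNA. RefSeq windows (GRCh38.p14) from 250 bases before to 50 bases after each start were searched on both strands for an ISRE core, GAAANNGAAA (TTTCNNTTTC on the other strand), and for a GAS element, TTCNNNGAA, which can overlap an ISRE core. Of the members, 9 were in the table and IFITM2 was not. An ISRE core was present at 1 or more starts of 8 of these 9 and of 4.38% of all 27305 gene symbols in the table (3.57% of its 35116 windows). A GAS element was present in 4 of the 9 (IFITM1, BST2, PARP14 and WARS1) and in 9.38% of all symbols (7.66% of windows). The 3 windows of MOV10 held neither. The stretches around the ISRE cores are given below 5′ to 3′ on the strand of the gene, with the ISRE cores in capitals.
IFITM1 (chr11:313980-314049, + strand): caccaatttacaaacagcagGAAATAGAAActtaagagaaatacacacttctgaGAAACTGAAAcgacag
IFITM3 (chr11:320853-320922, − strand): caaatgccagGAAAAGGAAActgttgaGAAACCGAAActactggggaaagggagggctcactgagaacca
BST2 (chr19:17405701-17405770, − strand): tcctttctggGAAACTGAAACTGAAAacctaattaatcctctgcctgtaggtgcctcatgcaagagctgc
TRIM14 (chr9:98119213-98119282, − strand): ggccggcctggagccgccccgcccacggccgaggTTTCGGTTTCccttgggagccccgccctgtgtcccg
DTX3L (chr3:122564278-122564347, + strand): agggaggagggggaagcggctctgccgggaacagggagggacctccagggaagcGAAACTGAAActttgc
PARP9 (chr3:122564291-122564360, − strand): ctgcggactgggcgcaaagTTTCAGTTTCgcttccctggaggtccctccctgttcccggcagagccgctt
PARP14 (chr3:122680779-122680848, + strand): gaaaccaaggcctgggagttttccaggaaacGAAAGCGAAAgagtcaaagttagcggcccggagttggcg
WARS1 (chr14:100375343-100375412, − strand): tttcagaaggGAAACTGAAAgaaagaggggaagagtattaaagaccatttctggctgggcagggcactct

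The ISRE core of DTX3L and that of PARP9 were the same 10 bases, chr3:122564332-122564341, read from opposite strands. Its first base lay 6 bases before the DTX3L start and 41 bases before one of the 2 PARP9 starts. IFITM1 had cores 40 and 6 bases before its start and IFITM3 had cores 52 and 35 bases before its start. In BST2 a pair of cores overlapped, 130 and 124 bases before the start. WARS1 had its core 55 bases before one of its 2 starts and none in the window of the other. These matches describe letters and do not show that a factor was bound.

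The 10 genes lie at 6 loci of GRCh38. IFITM2 (chr11:303655-309397, + strand), IFITM1 (chr11:310041-315272, + strand) and IFITM3 (chr11:319676-329475, − strand) form a cluster. PARP9 (chr3:122527924-122564577, − strand) and DTX3L (chr3:122564338-122575203, + strand) share 240 bases at their starts, and PARP14 (chr3:122680839-122730840, + strand) follows. BST2 is at chr19:17402939-17405630, TRIM14 at chr9:98069275-98119222, and WARS1 at chr14:100333790-100376805, all on the − strand. MOV10 is at chr1:112673141-112700756 on the + strand. Each value is the deposited count of a whole gene identifier, and the exons and transcripts that it covers are not given.

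In SUDHL6, TRIM14 and DTX3L were higher and BST2 was lower in resistant than in parental cells, and the other members either did not meet the call rule or were too low to enter the fit. In SUDHL16, 7 of the 10 members were called higher in resistant cells and 0 lower (0 also at an unadjusted p under 0.05 in edgeR, with DESeq2 and with voom). The call rule required 1.5-fold or more and, in edgeR's quasi-likelihood test, an adjusted p (Benjamini-Hochberg) under 0.05. Of 8 members tested in SUDHL6, 2 were called higher and 1 lower, beside 4.31% and 4.65% of all 16662 genes tested. Of 10 tested in SUDHL16, 7 were called higher and 0 lower, beside 3.20% and 2.10% of 15708 genes, and without parental replicate 2 the same 7 were called beside 6.73% and 3.32% of 16280 genes. These counts follow from how the genes were chosen. The libraries of the groups did not overlap for 6 members in SUDHL6, beside 47.9% of all genes, and for 8 in SUDHL16, beside 26.6% (42.2% without parental replicate 2). The median log2 fold change was 0.24 over the 8 members in SUDHL6 and 1.92 over the 10 in SUDHL16 (1.96 without parental replicate 2), and that of all genes tested was within 0.05 of 0 in each of these fits.

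**Figure D1:**
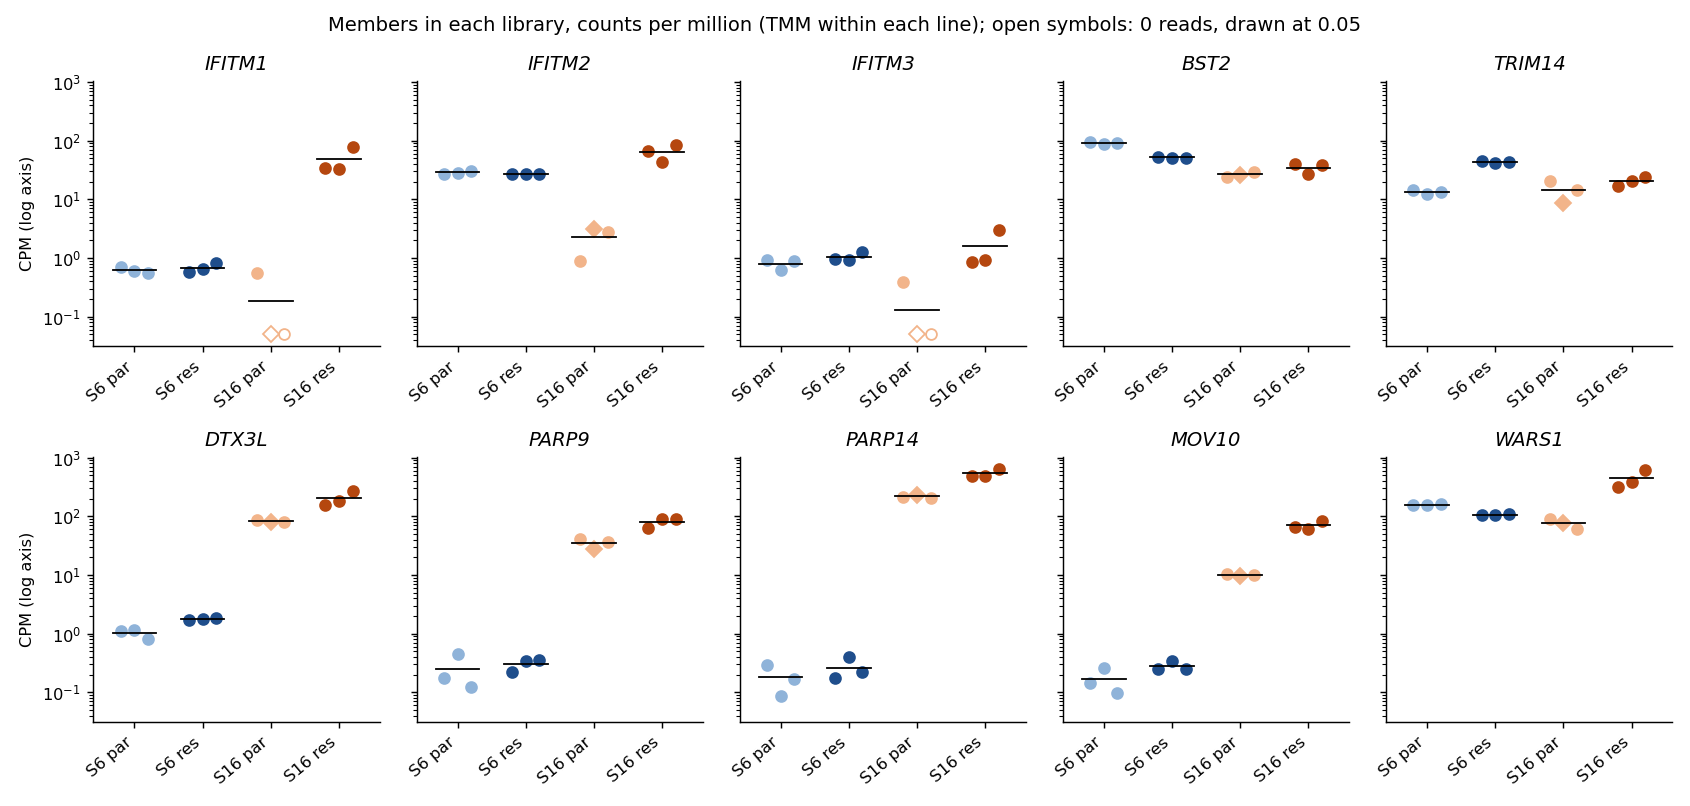
CPM of each member in each of the 12 libraries, on a log axis, by group (S6, SUDHL6; S16, SUDHL16; par, parental; res, resistant). Points are libraries, black lines are group means, diamonds mark SUDHL16 parental replicate 2, and open symbols mark libraries with 0 reads, drawn at 0.05. DTX3L, PARP9, PARP14 and MOV10 sit below 2 CPM in all 6 SUDHL6 libraries and above 9 CPM in all 6 SUDHL16 libraries.

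In the IFITM cluster, IFITM1 and IFITM2 were called higher in SUDHL16 resistant cells and were not called in SUDHL6, and IFITM3 was called in neither line. In SUDHL6, IFITM2 stood at 27.4, 27.97 and 30.6 CPM in the parental libraries and at 26.99, 27.2 and 26.9 CPM in the resistant ones. All 3 resistant libraries were just below the parental ones, with a log2 fold change of −0.09 (SE 0.05) that did not meet the call rule. In SUDHL16, IFITM2 stood at 0.882, 3.10 and 2.73 CPM in parental cells and at 66.2, 44.1 and 85.0 CPM in resistant cells. Every resistant library was more than 10 times above every parental one, and the log2 fold change was 4.99 (SE 0.51), or 5.19 (SE 0.54) without parental replicate 2. Each sample is a bulk of cells, in which a change in the number of cells with a transcript and one in its amount per cell cannot be told apart.

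IFITM1 was near the limit of counting outside SUDHL16 resistant cells. In SUDHL6 it had 24, 20 and 23 reads in the parental libraries and 23, 26 and 30 in the resistant ones, and the groups overlapped (log2 fold change 0.13, SE 0.28). In SUDHL16 parental cells it had 10, 0 and 0 reads, where 0 allows up to 1.03 CPM in replicate 2 and 0.186 CPM in replicate 3. The resistant libraries had 520, 702 and 1815 reads, which is 34.8, 33.0 and 77.2 CPM. The log2 fold change was 7.52 (SE 0.87), or 7.37 (SE 0.85) without parental replicate 2. All parental reads came from replicate 1, and without it the fold change became a lower bound, at least 306-fold, taking 3 counts over both libraries as the floor. This bound covers counting error in those parental libraries only, and the fit with replicate 1 gave 183-fold.

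IFITM3 remained low everywhere. It had 31, 21 and 36 reads in SUDHL6 parental cells and 38, 37 and 46 in SUDHL6 resistant cells, a log2 fold change of 0.36 (SE 0.25) without a call. In SUDHL16 it had 7, 0 and 0 reads in parental cells and 13, 20 and 70 in resistant cells. The groups did not overlap, yet the log2 fold change of 3.22 (SE 1.30; 2.99, SE 1.23, without parental replicate 2) did not meet the call rule. Without parental replicate 1, whose 7 reads were the only parental ones, IFITM3 was at least 10.1-fold higher on the same floor, beside 9.34-fold in the fit with it. With voom, IFITM3 was called higher in SUDHL16. The noncoding RNA gene ENSG00000251661 overlaps IFITM3 by 5956 bases on the opposite strand. In SUDHL16 it had 0, 2 and 0 reads in parental cells and 85, 76 and 138 in resistant cells, and the effect of this overlap was not tested.

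The share of each paralog shows the composition of the cluster without the scaling of libraries. In the 6 SUDHL6 libraries, IFITM2 made up 92.8% to 95.9% of the reads of the 3 genes, and each had 988 to 1304 such reads. In SUDHL16 resistant cells IFITM1 made up 34.2% (95% exact binomial interval 31.8% to 36.6%), 42.3% (39.9% to 44.7%) and 46.7% (45.1% to 48.3%), and IFITM2 made up 65.0%, 56.5% and 51.5%. IFITM3 had at most 1.80% there. The shares thus differed between the lines in all resistant libraries, while those of SUDHL16 parental cells rested on 33, 9 and 44 reads. These intervals cover counting error only.

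**Figure D2:**
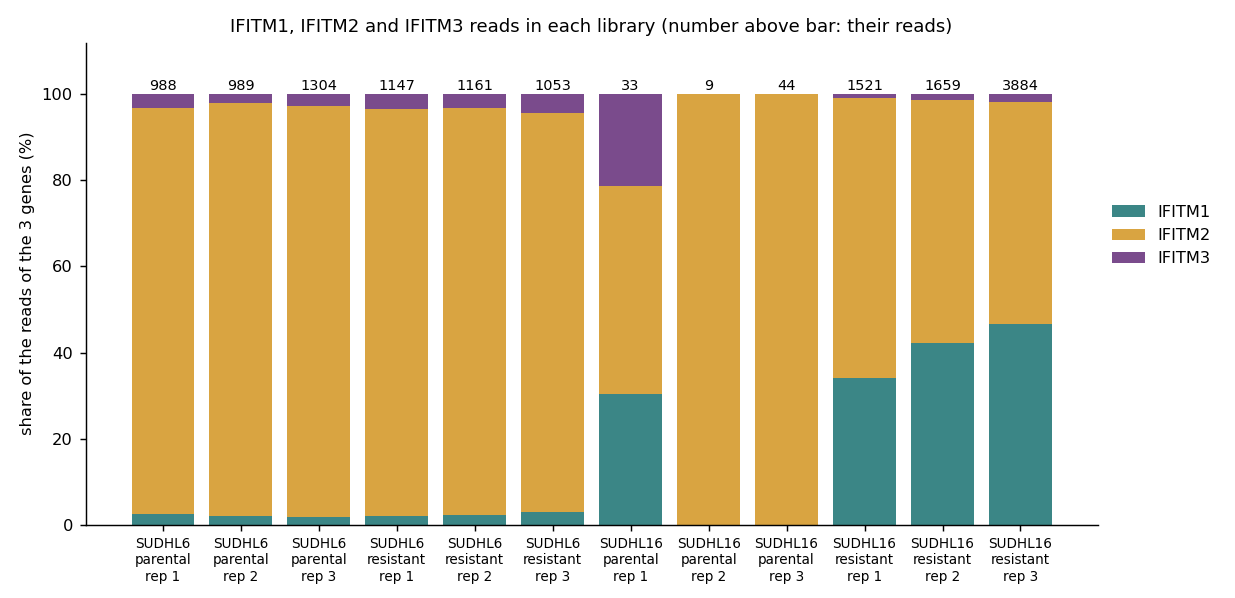
Share of IFITM1, IFITM2 and IFITM3 in the reads of the 3 genes (%), one bar per library, with the number of those reads above it. IFITM2 makes up over 90% in every SUDHL6 library, and IFITM1 makes up 34.2% to 46.7% in the SUDHL16 resistant libraries.

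The paralogs are close in sequence, which bears on how reads can be assigned. The coding sequences of IFITM2 (396 bases) and IFITM3 (399 bases) were 93.2% identical over 399 aligned columns, and those of IFITM1 (375 bases) and IFITM3 were 68.4% identical over 440 columns. Of the 50-base stretches of the canonical transcript, 55.1% of IFITM1, 12% of IFITM2 and 20.8% of IFITM3 also occurred in a transcript of another gene, most of them in each other, in IFITM pseudogenes or in ENSG00000288681, a readthrough gene that spans IFITM2 and IFITM1. At 100 bases the shares were 50.1%, 2.09% and 8.20%. Of the other members, DTX3L had the largest share at 50 bases, 1.99%, and 0 stretches of 100 bases were shared. The 12 IFITM pseudogenes together had 20 to 214 reads per library. The shares include stretches found in the readthrough gene, so they are not the part of the reads that could be split between paralogs. That part was not measured. The values of IFITM1, IFITM2 and IFITM3 are uncertain, since reads could be split between copies. ENSG00000288681 was not among the identifiers counted, so it has no reads of its own here.

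BST2 was called lower in SUDHL6 and was not called in SUDHL16, and the difference between the lines was not tested. It stood at 93.8, 86.7 and 91.6 CPM in SUDHL6 parental cells and at 53.5, 51.4 and 50.6 CPM in resistant cells. The groups were well apart, with a log2 fold change of −0.81 (SE 0.04), a 1.75-fold lower level. In SUDHL16 it stood at 24.5, 25.5 and 29.5 CPM in parental cells and at 39.5, 26.7 and 38.0 CPM in resistant cells, and the groups overlapped. The log2 fold change there was 0.39 (SE 0.25), or 0.37 (SE 0.26) without parental replicate 2.

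TRIM14 showed the largest change of a member in SUDHL6. Its level was 14.2, 12.4 and 13.2 CPM in the parental libraries and 44.9, 42.2 and 43.1 CPM in the resistant ones, so that each resistant library was about 3 times above each parental one. This was 1.71 on the log2 scale (SE 0.06). In SUDHL16 it stood at 20.7, 8.61 and 14.2 CPM in parental cells and at 16.9, 20.8 and 24.3 CPM in resistant cells, with overlapping groups and no call (log2 fold change 0.49, SE 0.36; 0.26, SE 0.29, without parental replicate 2). TRIM14 overlaps NANS, on the opposite strand, by 13803 bases at its 3′ end. NANS had 1618 to 2023 reads in every SUDHL6 library.

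DTX3L was the one member called higher in both lines. In SUDHL6 it was low, at 1.12, 1.15 and 0.811 CPM in parental cells and 1.74, 1.81 and 1.87 CPM in resistant cells. The groups did not overlap, and the log2 fold change was 0.82 (SE 0.20). In SUDHL16 it stood at 88.3, 81.3 and 80.8 CPM in parental cells and at 156, 181.9 and 270.9 CPM in resistant cells. The log2 fold change was 1.28 (SE 0.28), or 1.27 (SE 0.28) without parental replicate 2. The lines were scaled separately.

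Its partner PARP9 was barely detected in SUDHL6, with 6, 15 and 5 reads in parental and 9, 14 and 13 reads in resistant cells. The groups overlapped, and the log2 fold change of 0.35 (SE 0.51) ranged from 0.00 to 1.05 as single libraries were left out, the highest without parental replicate 2. In SUDHL16 PARP9 stood at 40.7, 27.9 and 36.9 CPM in parental cells and at 63.1, 88.6 and 90.3 CPM in resistant cells. All resistant libraries were higher, with a log2 fold change of 1.19 (SE 0.25; 1.06, SE 0.24, without parental replicate 2).

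PARP14 was not tested in SUDHL6, where it had at most 0.396 CPM in a library. In SUDHL16 it stood at 214.6, 235.6 and 209.4 CPM in parental cells and at 488.6, 493.3 and 646.1 CPM in resistant cells. The groups did not overlap, and the log2 fold change was 1.30 (SE 0.26), or 1.37 (SE 0.23) without parental replicate 2. The 3 genes of the chr3 locus thus differed by a similar amount, 1.19 to 1.30 on the log2 scale. Their calls did not hold in every subset of the libraries. When any one library other than parental replicate 2 was left out, none of these 3 met the call rule, and IFITM1, IFITM2, MOV10 and WARS1 made up the 4 members called.

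**Figure D3:**
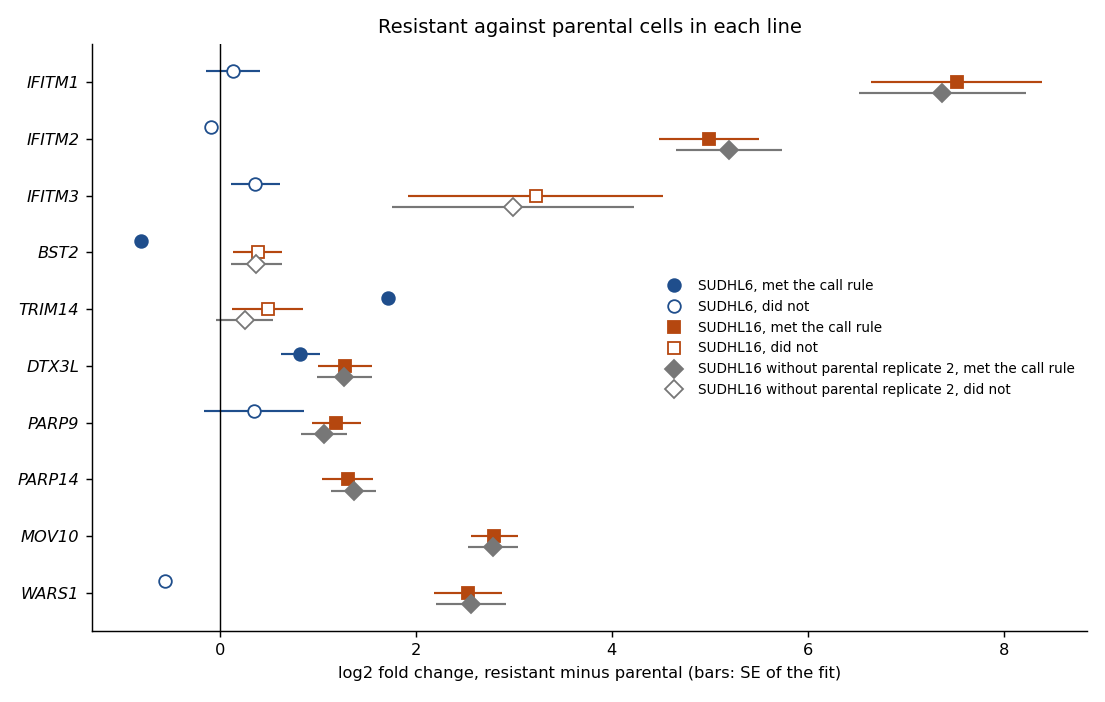
Log2 fold change of each member, resistant minus parental, in SUDHL6 (circles), in SUDHL16 (squares) and in SUDHL16 without parental replicate 2 (diamonds), with the SE of the edgeR fit. Filled symbols met the call rule, and PARP14 and MOV10 were too low in SUDHL6 to be fitted. All 10 members lie above 0 in SUDHL16, up to 7.52 for IFITM1, and 5 of 8 do in SUDHL6.

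MOV10 was likewise too low to be tested in SUDHL6, at 0.0983 to 0.347 CPM. In SUDHL16 it stood at 10.4, 9.64 and 10.1 CPM in parental cells and at 65.0, 61.3 and 84.5 CPM in resistant cells. The parental libraries lay close together and far from the resistant ones. On the log2 scale they differed by 2.80 (SE 0.24), or by 2.79 (SE 0.26) without parental replicate 2.

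WARS1 differed in opposite directions in the 2 lines, which was not tested. In SUDHL6 it stood at 158.0, 155.6 and 159.3 CPM in parental cells and at 106.8, 104.5 and 109.4 CPM in resistant cells. The groups were far apart relative to their spread, but the log2 fold change of −0.56 (SE 0.03), 1.47-fold, fell just short of the 1.5-fold limit, so WARS1 was not called there. In SUDHL16 it stood at 89.6, 78.5 and 61.4 CPM in parental cells and at 312.0, 391.7 and 625.3 CPM in resistant cells. The groups again did not overlap, with a log2 fold change of 2.53 (SE 0.35), or 2.56 (SE 0.36) without parental replicate 2.

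The parental levels of the lines are set side by side as a description and with no p-value, because the same parental libraries entered the differences that were known when the genes were listed, and because kit and instrument changed with the line. Parental SUDHL16 cells had far more RNA of the ADP-ribosylation genes and of MOV10 than parental SUDHL6 cells, and less of IFITM2, BST2 and WARS1. With all 6 parental libraries in 1 edgeR quasi-likelihood fit, PARP14 went from 0.193 ± 0.108 CPM in SUDHL6 to 197.8 ± 5.83 CPM in SUDHL16 (SD, n = 3 each), a log2 difference of 9.96 (SE 0.36). PARP9 differed by 6.95 (SE 0.51), DTX3L by 6.13 (SE 0.20) and MOV10 by 5.65 (SE 0.49). As single libraries were left out, the PARP9 difference ranged from 6.57 to 7.60, and that of PARP14 from 9.61 to 10.4. All 4 had higher values in 3 of 3 SUDHL16 libraries.

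On the other side, IFITM2 was lower in parental SUDHL16 cells, at 1.99 ± 1.01 CPM beside 29.99 ± 1.81 CPM, a log2 difference of −4.02 (SE 0.44). BST2 differed by −1.98 (SE 0.13) and WARS1 by −1.26 (SE 0.18) in the same fit. TRIM14 stood at 13.9 ± 0.927 and 13.2 ± 6.07 CPM, a log2 difference of −0.03 (SE 0.34) whose sign turned to 0.18 without SUDHL16 parental replicate 2. IFITM1 (−1.58, SE 1.19) and IFITM3 (−2.42, SE 1.15) did not meet the call rule, and IFITM3 met it without SUDHL16 parental replicate 2 (−2.20, SE 0.84). Both met it without SUDHL16 parental replicate 1, which held all their reads in that group. In total 4 members were called higher and 3 lower, beside 25.9% and 23.9% of all 17079 genes tested. Without SUDHL16 parental replicate 2 they were 4 and 4, beside 30.8% and 35.6% of 18703 genes. The groups did not overlap for 9 members, beside 67.6% of all genes.

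Levels were compared between members per kilobase of merged exons, on the CPM scale of each line. In SUDHL6, BST2 was the highest member in both groups, at 82.4 ± 3.32 CPM per kb in parental and 47.1 ± 1.40 in resistant cells (SD, n = 3). WARS1 (24.8 ± 0.294) and IFITM2 (17.9 ± 1.06) followed in parental cells and did not overlap, while in resistant cells IFITM2 (16.8 ± 0.0910) and WARS1 (16.8 ± 0.387) were within each other's range. In SUDHL16 parental cells BST2 (24.1 ± 2.44) and PARP14 (21.4 ± 1.35) came first and overlapped, but did not overlap without parental replicate 2. In SUDHL16 resistant cells WARS1 (69.7 ± 25.6), PARP14 (52.8 ± 8.72) and IFITM2 (40.5 ± 12.8) came first, and neighbours in this order overlapped. With the length of the canonical transcript in place of merged exons, IFITM1 moved from the sixth to the second place there, and WARS1 came first in SUDHL16 parental cells in place of BST2. The length fell from 6356 to 2639 bases for WARS1 and from 1606 to 1006 bases for IFITM2. The closeness of these genes in SUDHL6 resistant cells therefore held for merged exons only.

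**Figure D4:**
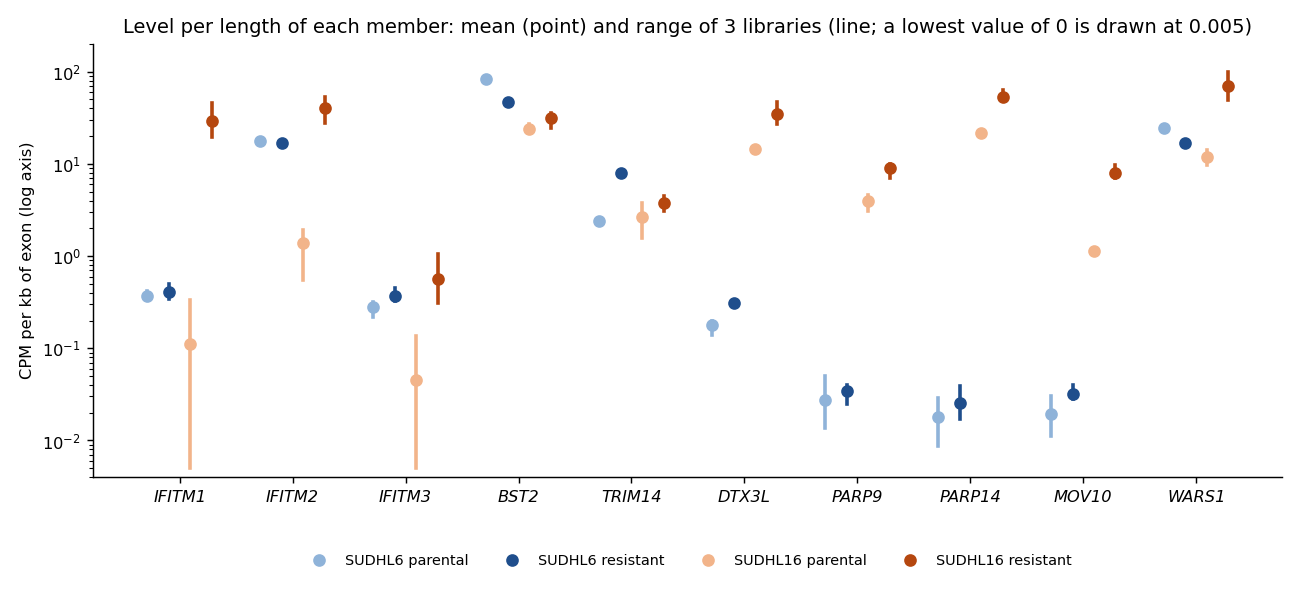
Level of each member in CPM per kb of merged exons, on a log axis, in the 4 groups. Points are means of 3 libraries and lines are their range, with a lowest value of 0 drawn at 0.005. BST2 is highest in SUDHL6 parental cells at 82.4, and WARS1 in SUDHL16 resistant cells at 69.7.

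The pathway around the members was read from 10 lists of 167 other genes, which were also drawn up with earlier results of these data known. The p-values of listed genes, adjusted over all genes tested, are therefore no independent evidence. Some genes, such as IFIH1 and APOBEC3G, are in 2 lists. The counts below stand beside 4.31% of all genes called higher and 4.65% lower in SUDHL6. The shares in SUDHL16 were 3.20% and 2.10%, or 6.73% and 3.32% without parental replicate 2. Of 54 antiviral interferon-stimulated effectors, 35 were tested in SUDHL6, and of these 13 were called higher and 0 lower, the median being 0.43 on the log2 scale (2 were lower at an unadjusted p under 0.05 in edgeR, and 0 were called lower by DESeq2 or voom). OAS2, a sensor of double-stranded RNA, rose from 5.72 ± 0.422 to 23.9 ± 1.64 CPM (2.07, SE 0.08, edgeR adjusted p = 1.35e-09). EIF2AK2, the kinase PKR, rose by 1.43 (SE 0.09, edgeR adjusted p = 7.51e-08) and APOBEC3G, a cytidine deaminase, by 0.60 (SE 0.03, edgeR adjusted p = 2.42e-08).

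In SUDHL16, 48 of the effectors were tested, of which 7 were called higher and 0 lower, with a median of 1.01 (1 was lower at an unadjusted p under 0.05 in edgeR, 0 were called lower by DESeq2 and 1 by voom). Without parental replicate 2 these became 23 higher and 0 lower, with a median of 1.64. OAS2 rose from 3.24 ± 1.67 to 33.0 ± 4.41 CPM (3.47, SE 0.40, edgeR adjusted p = 0.00238), SAMD9L, an antiviral factor, by 3.05 (SE 0.38, edgeR adjusted p = 0.00342) and EPSTI1 by 2.04 (SE 0.29, edgeR adjusted p = 0.00563). OAS3 had the smallest adjusted p of the list without that library, with a log2 fold change of 5.90 (SE 0.38, edgeR adjusted p = 0.000115), and its CPM in the library left out was 5.17 beside 0.606 and 0.372 in the other parental ones. IFI44, named after its values were seen, had 0 reads in all 3 parental libraries and 66, 88 and 125 reads in the resistant ones. It was called higher, at least 57.3-fold on a floor of 3 counts over the parental group, but not when any one resistant library was left out.

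Among 22 interferon receptors and signalling genes, 1 was called higher and 1 lower of 20 tested in SUDHL6, and 5 higher and 0 lower of 21 in SUDHL16 (6 and 0 without parental replicate 2; 0 lower also at an unadjusted p under 0.05 in edgeR, with DESeq2 and with voom). SOCS1, an inhibitor of JAK kinases, fell in SUDHL6 by 1.01 on the log2 scale (SE 0.19, edgeR adjusted p = 0.00126). It rose in SUDHL16 from 0.551, 0 and 0 CPM to 11.7, 11.4 and 13.4 CPM (5.6, SE 1.01, edgeR adjusted p = 0.0171). The phosphatase gene PTPN2 rose in SUDHL6 by 0.61 (SE 0.05, edgeR adjusted p = 8.38e-07). The transcription factors IRF5 (3.30, SE 0.36, edgeR adjusted p = 0.00191) and STAT3 (2.0, SE 0.25, edgeR adjusted p = 0.00368) rose in SUDHL16.

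In the family of PARP9 and PARP14, 1 of 14 other PARP genes tested was called in SUDHL6, and 4 of 15 were called higher and 1 lower in SUDHL16 (5 and 1 without parental replicate 2). PARP10 was called in both lines, with log2 fold changes of 1.10 (SE 0.12, edgeR adjusted p = 1.59e-05) in SUDHL6 and 1.29 (SE 0.30, edgeR adjusted p = 0.0442) in SUDHL16. PARP6 rose by 1.51 (SE 0.26, edgeR adjusted p = 0.014) and TIPARP fell from 97.2 ± 30.7 to 27.4 ± 5.67 CPM (−1.83, SE 0.30, edgeR adjusted p = 0.0116) in SUDHL16. Of the 4 other deltex ligases, relatives of DTX3L, 0 were called by edgeR in either line (at an unadjusted p under 0.05 these were 2 for SUDHL6 and 1 for SUDHL16; 0 by DESeq2, and 0 and 1 by voom). In the parental comparison, 6 of the 15 other PARP genes were called higher in SUDHL16 and 3 lower, beside 25.9% and 23.9% of all genes tested.

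Of 18 other TRIM genes of antiviral immunity, 0 were called by edgeR, DESeq2 or voom in SUDHL6, where TRIM14 had the largest change of a member, and 9 were higher and 5 lower at an unadjusted p under 0.05 in edgeR. In SUDHL16 2 were called higher, TRIM25, the ligase of RIG-I (1.61, SE 0.33, edgeR adjusted p = 0.0293), and TRIM65, the ligase of MDA5 (1.89, SE 0.36, edgeR adjusted p = 0.0217), and 1 lower, TRIM44 (−1.63, SE 0.28, edgeR adjusted p = 0.0138). In the MAVS pathway that TRIM14 joins, 1 of 12 genes tested in SUDHL6 was called higher and 2 lower. The first was IFIH1, which encodes MDA5 (2.71, SE 0.77, edgeR adjusted p = 0.0142; 0, 0 and 0.197 CPM against 0.373, 0.718 and 0.385 CPM). The others were IKBKG (−0.63, SE 0.04, edgeR adjusted p = 1.63e-07) and TRAF3 (−0.68, SE 0.06, edgeR adjusted p = 2.05e-06). In SUDHL16, TRAF3 (1.03, SE 0.21, edgeR adjusted p = 0.0281) and NLRX1 (1.53, SE 0.25, edgeR adjusted p = 0.0116) were called higher and 0 of 13 lower (also 0 at an unadjusted p under 0.05 in edgeR, with DESeq2 and with voom).

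Around WARS1, 0 of 19 other cytosolic aminoacyl-tRNA synthetases were called by edgeR, DESeq2 or voom in SUDHL6. Their median was −0.08 on the log2 scale, and 11 were lower and 2 higher at an unadjusted p under 0.05 in edgeR. In SUDHL16 1 was called, CARS1, the cysteinyl-tRNA synthetase (1.37, SE 0.27, edgeR adjusted p = 0.0261; 2 genes without parental replicate 2), and the median was 0.36. In the parental comparison 12 of the 19 were called lower in SUDHL16, beside 23.9% of all genes tested, and 0 higher (0 also at an unadjusted p under 0.05 in edgeR, with DESeq2 and with voom), with a median of −1.28, next to −1.26 for WARS1. Of the 9 genes of tryptophan use, 6 were tested. KYNU, which encodes kynureninase, fell in SUDHL6 by 0.75 on the log2 scale (SE 0.07, edgeR adjusted p = 1.97e-06). AHR, the receptor of aryl hydrocarbons and kynurenines, rose there by 0.60 (SE 0.08, edgeR adjusted p = 9.98e-05), whereas in SUDHL16 it fell from 116, 541 and 113 CPM to 3.42, 1.74 and 2.21 CPM (−6.71, SE 0.78, edgeR adjusted p = 0.00244; −5.55, SE 0.32, without parental replicate 2). The amino acid transporter subunit SLC3A2 rose in SUDHL16 by 0.94 (SE 0.21, edgeR adjusted p = 0.042). Of 14 RNA silencing and decay partners of MOV10, 12 were tested in each line, and 1 was called in SUDHL6 (APOBEC3G, higher) and 0 in SUDHL16 by edgeR (0 at an unadjusted p under 0.05, 0 by DESeq2 and 1 by voom; 1 without parental replicate 2, again APOBEC3G).

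All these listed genes called in SUDHL16 were also called without parental replicate 2. OAS2, SAMD9L, EPSTI1, IRF5, STAT3 and AHR were called there whichever library was left out, while SOCS1, TIPARP, NLRX1, PARP6, TRIM65, OAS3, PARP10, TRIM44, TRIM25, TRAF3, CARS1 and SLC3A2 lost their call without 3 to 5 of the 6 libraries. Each of the parental reads of SOCS1 in SUDHL16 came from replicate 1, and each of those of IFIH1 in SUDHL6 from replicate 3, and without that library the fitted log2 fold changes were 10.6 and 7.2, values that depend on the prior count of the fit because no parental read was left. In SUDHL6, AHR lost its call without parental replicate 1, parental replicate 2 or resistant replicate 2, APOBEC3G without parental replicate 3 or resistant replicate 3, and PTPN2 and IFIH1 without resistant replicate 2. The other listed genes named for SUDHL6 kept theirs.

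**Figure D5:**
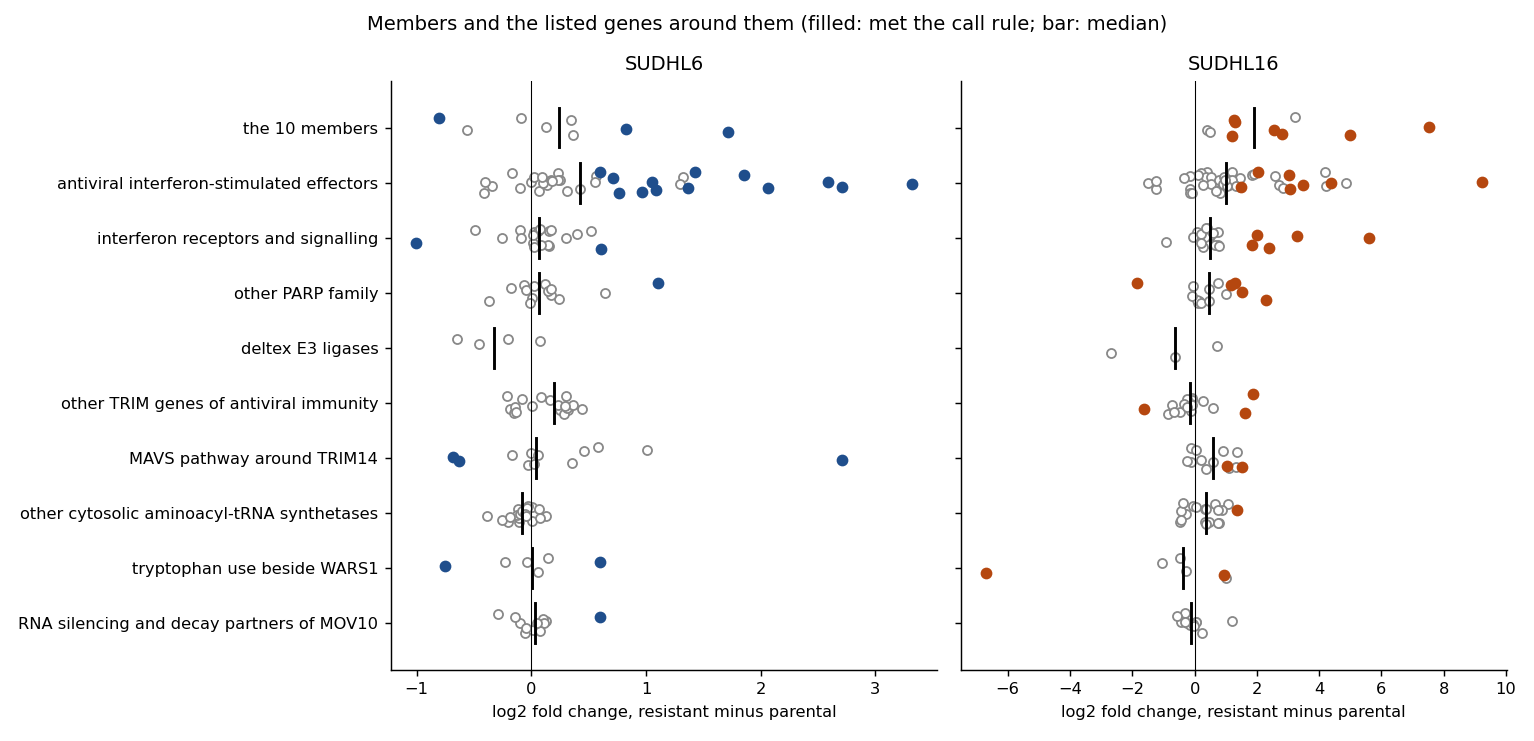
Log2 fold change, resistant minus parental, of the members and of the genes of 9 lists around them in SUDHL6 and SUDHL16. Each point is a gene, filled where it met the call rule, with a small random vertical offset, and bars are list medians. IFI44, which had 0 parental reads in SUDHL16, is drawn at its fitted value of 9.23. The antiviral effectors have medians of 0.43 in SUDHL6 and 1.01 in SUDHL16, and 0 of them were called lower.

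The genes beside the members were mostly not called, and neither were most genes. Of all genes tested, 4.31% were called higher and 4.65% lower in SUDHL6. In SUDHL16 the shares were 3.20% and 2.10%, or 6.73% and 3.32% without parental replicate 2. Genes overlapping a locus, such as NANS at TRIM14 and WDR25 at WARS1, were not taken as neighbours. The nearest tested protein-coding gene beyond either side of each of the 6 loci was called in SUDHL6 at 0 loci by edgeR, DESeq2 or voom. At an unadjusted p under 0.05 in edgeR, 2 were higher and 5 lower. In SUDHL16 1 was called, PGGHG, 7548 bases from IFITM2, with a log2 fold change of 2.56 (SE 0.43, edgeR adjusted p = 0.0126), or 3.03 (SE 0.36, edgeR adjusted p = 0.0014) without parental replicate 2. It was not called without resistant replicate 1 or resistant replicate 2. On the other side of the IFITM cluster SIGIRR was not called in SUDHL16 (1.92, SE 0.66, edgeR adjusted p = 0.154). KPNA1 and HSPBAP1, which flank the chr3 locus, had log2 fold changes of −0.08 (SE 0.29) and 0.02 (SE 0.33) in SUDHL16, beside 1.19 to 1.30 for the 3 members between them. MVB12A starts 92 bases from BST2 and had −0.21 (SE 0.05) in SUDHL6, where BST2 had −0.81. Beside TRIM14, ANP32B and CORO2A had −0.04 (SE 0.02) and 0.51 (SE 0.17) in SUDHL6. Beside MOV10, CAPZA1 and RHOC had −0.18 (SE 0.35) and 0.74 (SE 0.37) in SUDHL16. Within 500 kb of a locus, 0 to 1 genes were called in SUDHL6, where 5 to 29 were tested. In SUDHL16 0 to 3 were called (0 to 4 without parental replicate 2), of 6 to 27 tested. Beside WARS1, SLC25A29 had −0.15 (SE 0.13) in SUDHL6 and −0.52 (SE 0.60) in SUDHL16. On the other side WDR25 overlaps WARS1 by 388 bases on the opposite strand and was passed over. The nearest tested gene beyond the overlap was BEGAIN in SUDHL16 (0.27, SE 0.63). In SUDHL6 it was PPP2R5C, 1384904 bases away (−0.12, SE 0.02). Within 500 kb of WARS1, 3 of the 6 genes tested in SUDHL16 had values above 0, with a median of 0.05, and without parental replicate 2 all 6 had, with a median of 0.94 and 1 gene called.

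Profiles over the 12 libraries were compared for 6 members by the root mean square difference of centred log2 CPM, over 10652 genes tested in both lines with a mean of at least 5 CPM. The libraries share line, kit and instrument, so a large part of any likeness is the difference between the lines. DTX3L was most like the histone genes H4C15 (0.28) and H4C14 (0.32) and PTGS1 (0.37), and PARP9 was its rank 13 (0.53). PARP9 was most like CYRIA (0.39), SERPINA9 (0.49) and H4C15 (0.51), and DTX3L was its rank 5. IFITM2 was most like NXPH4 (0.38), SOWAHD (0.52) and IDH2 (0.59). TRIM14 was most like METTL4 (0.37), PSMG2 (0.41) and ENSG00000260997 (0.42), BST2 most like FAM50A (0.12), PHB2 (0.17) and HSP90B1 (0.21), and WARS1 most like CEBPB (0.23), ACSL1 (0.27) and CD40 (0.30). Apart from DTX3L and PARP9, none of these 6 members was within the first 100 of another. Outside the 6, MOV10 had DTX3L at rank 5 (0.58) and PARP9 at rank 12 (0.72). PARP14 had PARP9 at rank 31 (1.58) and DTX3L at rank 48 (1.93), and IFITM1 had WARS1 at rank 54 (2.19) and IFITM2 at rank 66 (2.23).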

How the data were processed

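RNA-sequencing of 12 cell line libraries was used. Per the labels, the authors used Trim Galore, HISAT2 and StringTie with GRCh38, and edgeR. The deposited files hold 1 library each, with a raw read count per gene in whole numbers. The counting tool, annotation and strand setting are not given in the sources used here, so overlapping and antisense genes cannot be told apart. All 60675 identifiers were counted in every library, and 93.21% were found in GENCODE 44.

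Groups came from the labels, and replicates were numbered in accession order. The members, lists and tests were chosen with earlier results of these data known. The lists were written from general knowledge.

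Each line was fitted alone with edgeR 4.0.16 in R 4.3.3 (filterByExpr, TMM, two-sided quasi-likelihood test, Benjamini-Hochberg adjustment over all genes tested), as were the 6 parental libraries. CPM are on the TMM scale of each fit. Calls needed an adjusted p under 0.05 and at least 1.5-fold. Where a library had 0 counts, 3 counts served as the floor. Floors and 95% exact binomial intervals cover counting error only. The genes named are the members, the nearest tested protein-coding neighbours that do not overlap a locus, the 3 called genes of each list with the smallest adjusted p in each line, and the 3 nearest profiles of 6 members (log2 CPM, prior count 2). OAS3 follows the same rule without SUDHL16 parental replicate 2, and IFI44 was added after its values were seen.

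The alternatives were DESeq2 1.42.0, scaling by upper quartiles or by library totals alone, no filter, protein-coding genes only, 1 fit of all 12 libraries, glmTreat, voom with quality weights (limma 3.58.1), and leaving out single libraries. The fits were tested on simulated counts with 200 changed genes. A planned comparison of the IFITM proteins was replaced by one of their coding sequences from GENCODE 44. Coding sequences were aligned globally with Biopython 1.88.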

Additional observations from a re-analysis of the deposited data

Results flagged for a closer look

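IFITM2 and WARS1 had opposite directions in the 2 lines. All 3 SUDHL6 resistant libraries were below all 3 parental ones for both genes, and all 3 SUDHL16 resistant libraries were above all 3 parental ones. Groups did not overlap, in either direction, for 47.9% of all genes tested in SUDHL6 and for 26.6% in SUDHL16 (42.2% without parental replicate 2). The log2 fold change of IFITM2 was −0.086 (SE 0.05) in SUDHL6 and 4.99 in SUDHL16, and that of WARS1 was −0.56 in SUDHL6 and 2.53 in SUDHL16. Neither SUDHL6 value met the call rule, and the difference between the lines was not tested, since both genes were chosen with these values known. BST2 had opposite signs as well, −0.81 (called) in SUDHL6 and 0.39 (not called) in SUDHL16, where its groups overlapped.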

How the results depend on the processing

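In SUDHL6 the fit of all 12 libraries called 1 member higher (TRIM14) and 0 lower, with 2 listed genes higher and 1 lower, against 2, 1, 16 and 4 in the fit of SUDHL6 alone. The glmTreat test called 1 member higher there, with 7 listed genes higher and 0 lower. In SUDHL16, library totals without scaling and glmTreat each called 4 members higher, IFITM1, IFITM2, MOV10 and WARS1, against 7. Listed genes called higher in SUDHL16 were 22, against 34 with DESeq2, 44 in the fit of all 12 libraries, 14 with glmTreat and 55 with voom. Those called lower were 3, against 6 in the fit of all 12 libraries and 6 with voom. As single libraries were left out in SUDHL16, members called higher ranged from 4 to 7, listed genes called higher from 6 to 42, the highest without parental replicate 2, and listed genes called lower from 1 to 3. In the parental comparison, no filter left 21 listed genes called higher against 42, and voom called 5 members lower against 3, the range being 3 to 5 as single libraries were left out. The parental difference of TRIM14, −0.03, reversed to 0.082 with upper-quartile scaling, 0.18 with library totals, 0.058 with protein-coding genes only and 0.12 with voom, and ranged from −0.48 to 0.18 as single libraries were left out. The cause was not tested. Upper-quartile scaling and library totals moved the median log2 fold change of all genes to −0.11 and 0.11 in SUDHL16, and to 0.15 and 0.14 in the parental comparison. The depth of SUDHL16 parental replicate 2 limits what can be said of IFITM1 and IFITM3, where 0 reads allow up to 1.03 CPM. The labels give no replicate numbers. No paired analysis was possible because the columns carry none.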
